A study of Schizosaccharomyces pombe with 8 samples.

Results

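The copper uptake genes of fission yeast (*Schizosaccharomyces pombe*) and the gene of their regulator were followed through inhibition of histone deacetylases. The 4 genes were *ctr4* (SPCC1393.10), *ctr5* (SPAC1142.05), *ctr6* (SPBC23G7.16) and *cuf1* (SPAC31A2.11c). They were taken by name, as gene entries with their coding entries, from both deposited tables, 4 of 5129 protein-coding genes and of 9111 features kept. Cells carrying flag-tagged Rpb3, an RNA polymerase II (Pol II) subunit, were grown with 20 µg/ml trichostatin A (TSA) for 2.5 h or left untreated, 2 biological replicates each. TSA inhibits class I and II histone deacetylases. Every culture carried the same tagged subunit, and no culture was depleted of or supplied with copper as far as the labels say. Nascent RNA that came down with Rpb3 (IP, NET-seq) and the input RNA of the same lysate were sequenced for each culture, which gave 8 libraries. An aliquot of budding yeast lysate in every lysate served as a spike-in, at 50 parts to 1.

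Copper enters fission yeast through Ctr4 and Ctr5, which sit together in the plasma membrane as a high-affinity transporter. Ctr6 resides in the vacuolar membrane and returns stored copper to the cytosol. Cuf1 is the copper-sensing transcription factor that switches on all these transporter genes when copper is scarce. It acts through a short promoter sequence called the copper-signalling element (CuSE) and is also known to turn down genes of reductive iron uptake.

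The genes lie on 3 chromosomes, by the positions of the deposited tables. *cuf1* spans 407714 to 409872 of chromosome I on the minus strand, with 1 coding exon of 1236 nt. *ctr5* spans 3635293 to 3636572 of chromosome I on the plus strand, with 1 coding exon of 522 nt. *ctr6* spans 2100018 to 2101253 of chromosome II on the plus strand, with 5 coding exons that add up to 447 nt. *ctr4* spans 818302 to 819361 of chromosome III on the plus strand, with 1 coding exon of 870 nt. The coding positions of all 4 genes are the same in the tables and in the RefSeq annotation of the ASM294v3 assembly, from which the sequences below were read.

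CuSE matches are shown because Cuf1 is known to act through this element. The 1000 bases before each start codon were searched on both strands for the 10-base element, whose core is GCTG. *ctr4* held 4 matches and *ctr5* 4, *ctr6* held 3 and *cuf1* held 1. Of the windows of the same length before 5110 protein-coding genes, 64.9% held at least 1 match (median 1), 9.0% held at least 3 and 2.17% at least 4. All 4 matches of *ctr4* lay before its listed start, which is 157 nt from the start codon. In *ctr5*, 1 match ran across the listed start, 472 nt from the start codon, and the other 3 lay in the leader. In *ctr6*, 2 matches lay before the listed start at 255 nt and 1 in the leader, and the match of *cuf1* lay before its listed start at 607 nt. The 2 distal matches of *ctr6* lay farther out than the end of *mti3*. That same-strand neighbour ends 184 nt before the listed start of *ctr6*. A match describes the letters and is not a measured binding site. In the stretches below capitals mark the matches, and the last line is the first coding exon of *ctr6* with the start codon in capitals, shown because nascent reads were densest there.
ctr5, bases -476 to -447 before the start codon, chrI:3635289-3635318, plus strand: ggaATTTTGCTGAgcgaTTATAGCTGGtag
ctr6, bases -941 to -912, chrII:2099332-2099361, plus strand: tctaggttacGTGAAGCTGAaaaatcgaag
ctr6, bases -220 to -191, chrII:2100053-2100082, plus strand: attagtgtacGTGGTGCTGGagtggatcgg
cuf1, bases -837 to -808, match on the other strand, chrI:410073-410102, minus strand: attacaaattACAGCTCAAAagcttcaaag
ctr6, coding exon 1, chrII:2100273-2100317, plus strand: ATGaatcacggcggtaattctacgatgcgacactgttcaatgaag

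Libraries held 7218671 to 10436194 reads over the kept features in the IP and 8104143 to 12591213 in the input. The median per protein-coding gene was 245 to 427 reads in the IP and 43 to 64 in the input. Reads over *ctr4* numbered 556 to 890 in the IP and 122 to 369 in the input. Those over *cuf1* numbered 220 to 423 in the IP and 16 to 39 in the input, the fewest of the 4 genes. Values are normalised reads per gene. IP values exist on a spike-in scale, set by budding yeast ribosomal protein genes, and likewise relative to total mapped reads (total-read scale), while input values exist on the total-read scale only. The untreated IP libraries differed from each other on the spike-in scale by a median of 0.38 (log2, replicate 1 above replicate 2).

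To ask how the genes stand relative to each other, levels were taken per kb of gene length. Nascent RNA was densest over *ctr4*, at 394 and 424 normalised reads per kb in TSA against 804 and 459 in untreated cells on the spike-in scale. *ctr6* had 301 and 345 reads per kb in TSA and 690 and 336 in untreated cells. *ctr5* had 299 and 284 reads per kb in TSA and 664 and 394 in untreated cells, so that *ctr5* and *ctr6* overlapped in untreated cells. *cuf1* lay below all the transporter genes in every IP library, at 56.2 and 84.2 reads per kb in TSA and 140 and 107 in untreated cells. Ranked among protein-coding genes by density, the transporter genes lay between the 83.9 and 91.6 percentiles in the IP, and *cuf1* between the 29.5 and 46.6 percentiles.

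In the input *ctr4* again came first, at 143 and 131 reads per kb in TSA and 251 and 105 in untreated cells. *ctr5* had 78.7 and 71.6 reads per kb in TSA and 119 and 63.4 in untreated cells. *ctr6* had 75.3 and 75.5 reads per kb in TSA and 53.8 and 49.5 in untreated cells. It stood below *ctr5* in both untreated libraries, whereas in TSA the values of *ctr5* and *ctr6* overlapped. *cuf1* was the lowest at 8.19 and 6.41 reads per kb in TSA and 13.0 and 11.8 in untreated cells, between the 16.4 and 36.6 percentiles of protein-coding genes.

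**Figure D1:**
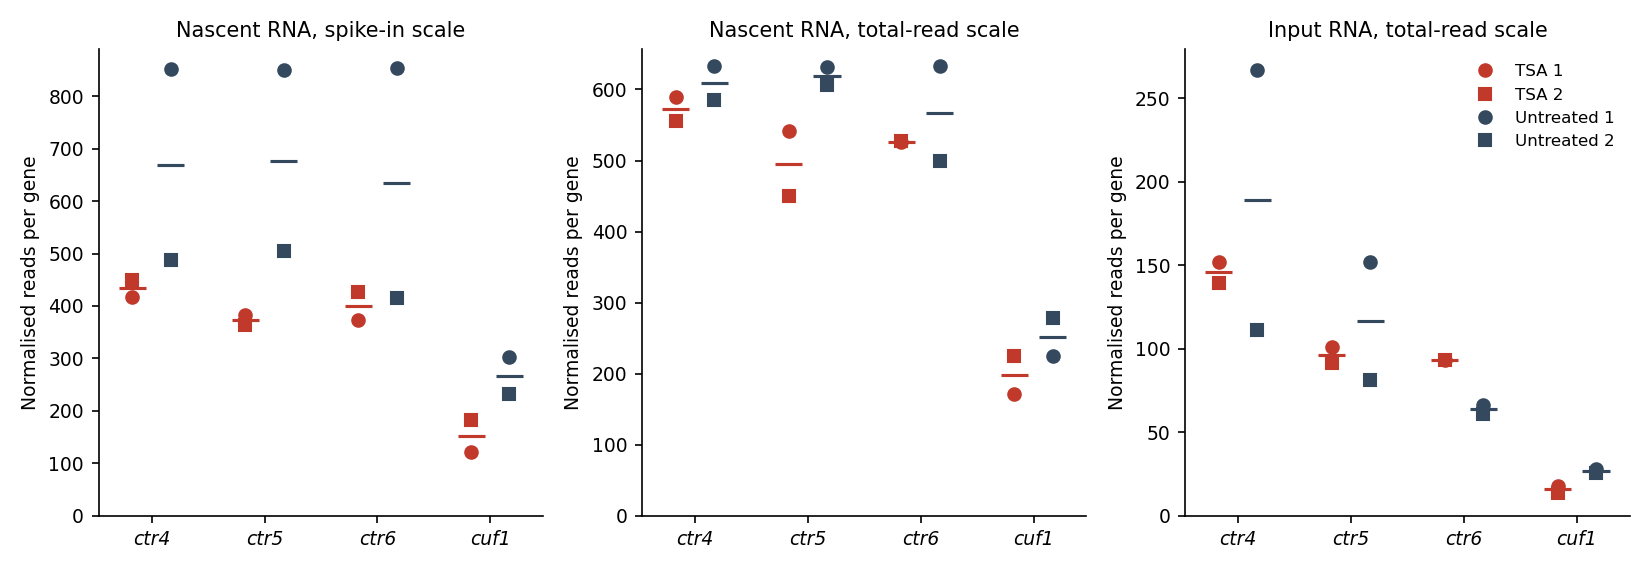
Normalised reads per gene (y axis) of *ctr4*, *ctr5*, *ctr6* and *cuf1* in nascent RNA on the spike-in and total-read scales and in input RNA, with TSA (red) left of untreated (dark) and lines at the means of 2 libraries. On the spike-in scale untreated replicate 1 stands at 850 to 853 for the transporter genes, above the other libraries, and in the input *ctr6* is higher and *cuf1* lower in both TSA libraries.

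The first question was whether TSA changed transcription of the copper genes. On the spike-in scale nascent RNA of all 4 genes had lower means in TSA, with log2 changes between -0.81 and -0.57, but none reached the call, set at an adjusted p below 0.05 together with at least a 2-fold change. Nascent *ctr4* stood at 417 and 449 normalised reads in TSA against 852 and 487 in untreated cells. Both TSA libraries lay below both untreated ones, of which replicate 1 was far the higher. Here and below, overlap of TSA and untreated values only describes the libraries. The share of all features without overlap was not counted. The log2 change was -0.57 ± 0.29 (SE, adjusted p = 0.151, limma). In the IP fits this SE is set by the variance of features at a like level, not by the gene's own replicates.

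Nascent *ctr5*, the partner of *ctr4*, stood at 383 and 364 normalised reads in TSA against 850 and 504 in untreated cells. The TSA libraries lay below both untreated libraries, and the log2 change of -0.80 ± 0.29 had an adjusted p of 0.0428 (limma) but fell short of 2-fold. The vacuolar transporter gene *ctr6* stood at 373 and 426 normalised reads in TSA against 853 and 415 in untreated cells. Here the groups overlapped, since TSA replicate 2 lay above untreated replicate 2, and the log2 change was -0.57 ± 0.29 (adjusted p = 0.147, limma). Nascent *cuf1* stood at 121 and 182 normalised reads in TSA against 303 and 231 in untreated cells. The groups did not overlap, and the log2 change was -0.81 ± 0.31 (adjusted p = 0.0506, limma).

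Most features were lower in TSA on this scale, with a median log2 change of -0.42 over the 8052 features tested. Of these, 2.1% were called higher and 6.31% lower in TSA, against 0 of the 4 copper genes in either direction, although *ctr5* and *cuf1* had unadjusted p values of 0.0061 and 0.0083 (limma). edgeR and DESeq2 on the recovered reads called 0 of the 4 in all 3 comparisons they were run on. Relative to that median, *ctr4* and *ctr6* differed by -0.15 and -0.16 and *ctr5* and *cuf1* by -0.39 each (log2). The spread of the untreated libraries bore on the result. Without untreated IP replicate 2, *ctr5* (-1.17, adjusted p = 7.4e-05) and *ctr6* (-1.09, adjusted p = 2.5e-04, limma) were called lower, while without untreated IP replicate 1 the 4 changes lay between -0.62 and -0.059 with no call.

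On the total-read scale, where the median log2 change over 8062 features was 0.027, the nascent changes of the 4 genes lay between -0.34 and -0.088. 4.45% of the features were called higher and 0.843% lower in TSA, and again 0 of the 4 genes, each with an unadjusted p of 0.183 or more (limma). *ctr4* stood at 590 and 556 normalised reads in TSA against 633 and 586 in untreated cells, a log2 change of -0.088 ± 0.27 (adjusted p = 0.915, limma). *ctr6* stood at 526 and 527 normalised reads in TSA against 634 and 500 in untreated cells, a log2 change of -0.094 ± 0.27 (adjusted p = 0.905, limma). The groups overlapped for both genes.

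*ctr5* stood at 541 and 450 normalised reads in TSA against 631 and 607 in untreated cells, a log2 change of -0.32 ± 0.27 (adjusted p = 0.565, limma). *cuf1* stood at 172 and 225 normalised reads in TSA against 225 and 278 in untreated cells, a log2 change of -0.34 ± 0.25 (adjusted p = 0.505, limma). For each gene both TSA libraries lay below both untreated ones, but in *cuf1* only barely, at 225 in TSA against 225.04 in untreated cells at the closest. On both scales *ctr5* and *cuf1* were thus the lower pair relative to the median feature, at the 14.9 and 14.5 percentiles of all changes by the spike-in and at the 16.7 and 15.6 percentiles by total reads. These percentiles describe 2 scalings of the same 4 libraries.

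**Figure D2:**
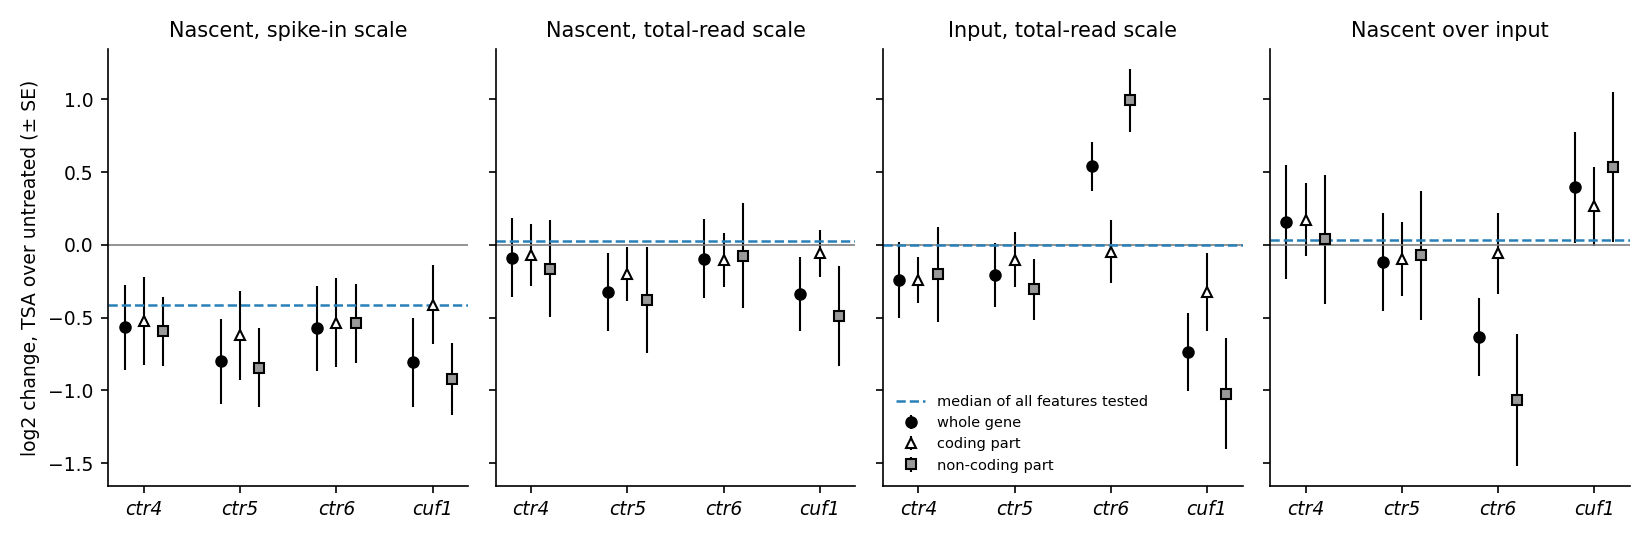
log2 change, TSA over untreated, with its SE (y axis) for the whole gene (filled circles), the coding part (open triangles) and the non-coding part (grey squares) of each gene in the 4 comparisons, with the median of the whole-feature fit as a dashed line. Whole-gene nascent changes on the spike-in scale lie between -0.81 and -0.57 beside a median of -0.42, and the input changes of *ctr6* (0.54) and *cuf1* (-0.74) lie on opposite sides of 0.

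The second question was whether the level of RNA in the lysate, the input, changed. Input values are relative to total reads, with a median log2 change of -0.0016 over all features tested. A change shared by most RNAs can therefore not show in them. In the input, *ctr6* was higher and *cuf1* lower in both TSA libraries than in both untreated libraries, while *ctr4* and *ctr5* overlapped. How many of all features were likewise without overlap was not counted. None of the 4 was called, beside 4.53% of 7245 features called higher and 1.56% called lower in TSA, although *ctr6* and *cuf1* had unadjusted p values of 0.0051 and 0.0141 (limma). Input *ctr6* stood at 93.1 and 93.3 normalised reads in TSA against 66.5 and 61.1 in untreated cells. The replicates lay close together in both groups, and the log2 change of 0.54 ± 0.17 had an adjusted p of 0.0421 (limma) but fell short of 2-fold.

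Input *cuf1* stood at 17.7 and 13.8 normalised reads in TSA against 28.2 and 25.5 in untreated cells, which came from 30 and 16 reads in TSA and 39 and 28 in untreated cells. The log2 change was -0.74 ± 0.27 (adjusted p = 0.0807, limma). Because cultures were measured in bulk, fewer cells expressing a gene and less RNA per cell cannot be told apart.

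The high-affinity pair differed more between the untreated input libraries than between the means of the groups. Input *ctr4* stood at 152 and 139 normalised reads in TSA against 267 and 111 in untreated cells (log2 change -0.24 ± 0.26, adjusted p = 0.586, limma). Input *ctr5* stood at 101 and 91.6 normalised reads in TSA against 152 and 81.2 in untreated cells (log2 change -0.21 ± 0.22, adjusted p = 0.583, limma). For both genes the TSA libraries lay between the untreated ones. Without untreated input replicate 1 the log2 changes turned to 0.38 for *ctr4* and 0.24 for *ctr5*. The paper reports lower *ctr4* RNA after TSA by Northern blot, given there as a check on its spike-in normalised RNA-seq. It also reports strongly lower *ctr4* RNA when the deacetylase Clr6 is mutated, but not when Clr3 is deleted. Those are separate experiments, and the input values here are relative to total reads. Why the input of *ctr4* was not called beside those reports was not tested.

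**Figure D3:**
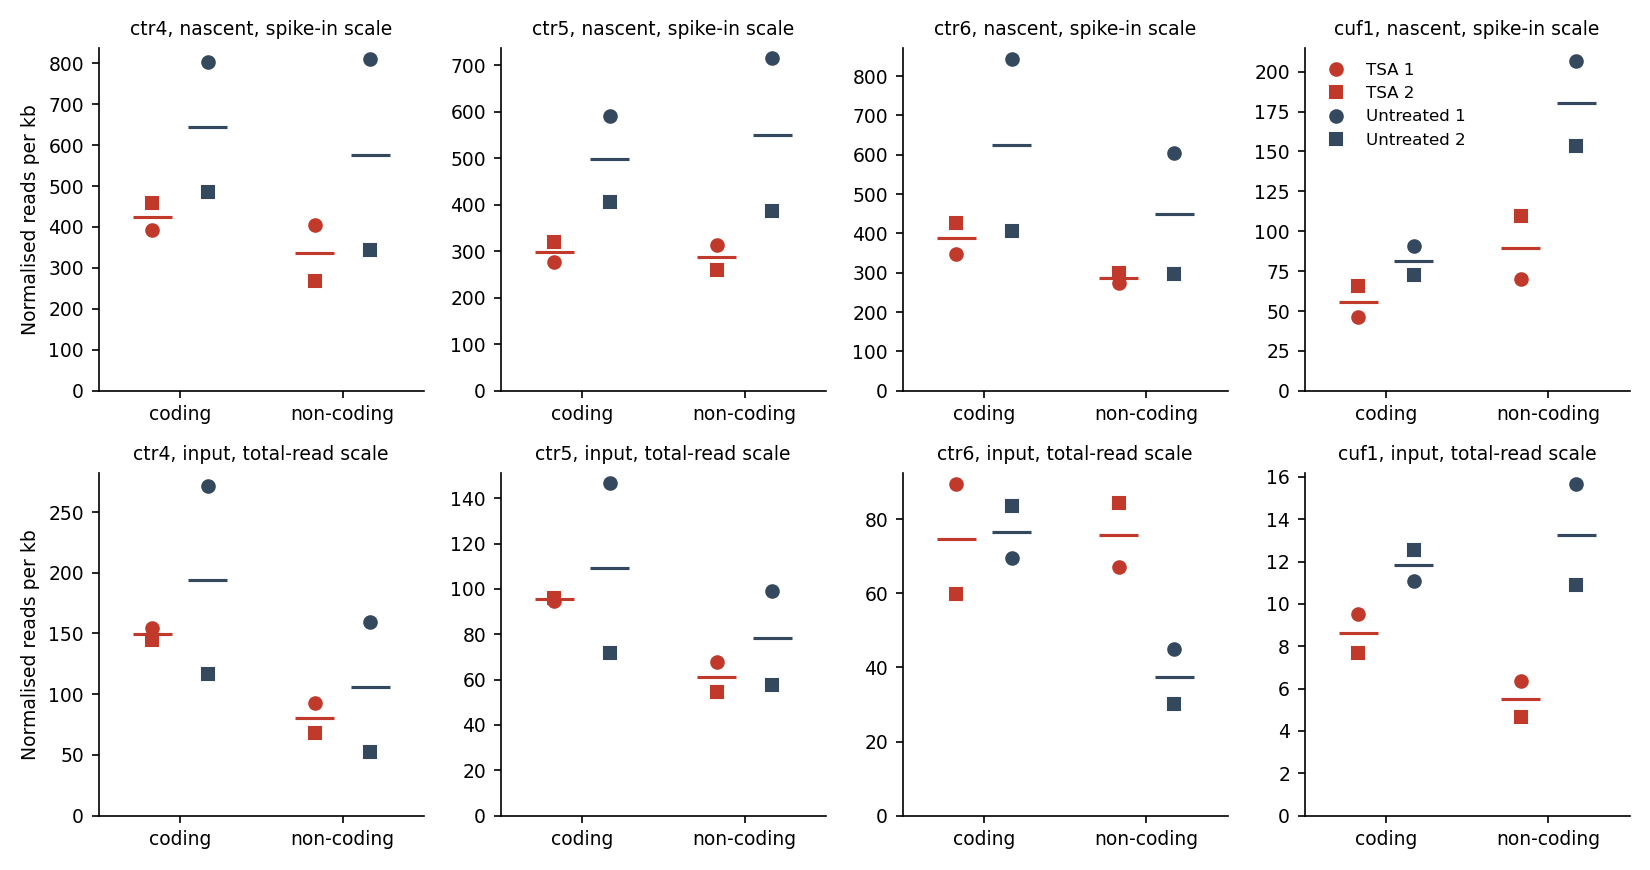
Normalised reads per kb (y axis) over the coding and non-coding parts of each gene, for nascent RNA on the spike-in scale (top) and input RNA (bottom), with TSA (red) left of untreated (dark) and lines at the means of 2 libraries. In the input the non-coding part of *ctr6* is higher in TSA (67.2 and 84.3 against 44.9 and 30.1) while its coding values overlap.

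The tables list the coding part of a gene apart from the whole gene, so the rest (leader, trailer and, in *ctr6*, introns) could be taken by difference. The higher level of input *ctr6* in TSA was found in that rest. Its non-coding part had 67.2 and 84.3 normalised reads per kb in TSA against 44.9 and 30.1 in untreated cells. Its coding part had 89.6 and 59.9 reads per kb in TSA against 69.5 and 83.7 in untreated cells, which overlapped. The log2 change was 0.99 ± 0.22 for the non-coding part (adjusted p = 0.0017, limma over 4280 genes, just short of 2-fold) and -0.047 ± 0.21 for the coding part (adjusted p = 0.911). The difference between the parts was not itself tested, and introns and untranslated ends could not be told apart with these entries. Before taking logs a constant was added that was set anew for each kind of part. Here and below, the log2 changes of coding and non-coding parts are therefore drawn towards 0 to different degrees.

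In *cuf1*, whose non-coding part holds 923 nt, the nascent density of that part was 70.0 and 109 reads per kb in TSA against 207 and 153 in untreated cells on the spike-in scale. The coding part had 46.0 and 65.4 reads per kb in TSA against 90.6 and 72.6 in untreated cells. Neither part overlapped between the groups. The log2 change was -0.92 ± 0.25 (adjusted p = 0.0026, limma over 4455 genes, below 2-fold) for the non-coding part and -0.41 ± 0.27 (adjusted p = 0.247, limma) for the coding part, beside medians of -0.40 over all non-coding parts and -0.44 over all coding parts. By total reads the changes were -0.49 ± 0.34 (adjusted p = 0.781, limma) for the non-coding part and -0.059 ± 0.16 (adjusted p = 0.894) for the coding part, neither called. In the input the non-coding part of *cuf1* had 6.38 and 4.68 reads per kb in TSA against 15.7 and 10.9 in untreated cells, a log2 change of -1.02 ± 0.38 (adjusted p = 0.105, limma). The difference between the parts of *cuf1* was not tested.

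The parts of *ctr4* and *ctr5* were taken in the same way, and the difference between parts was not tested. The log2 change of nascent *ctr5* was -0.62 in the coding part and -0.84 in the non-coding part on the spike-in scale (adjusted p = 0.128 and 0.0119, limma, both below 2-fold). That of nascent *ctr4* was -0.53 in the coding part and -0.59 in the non-coding part (adjusted p = 0.188 and 0.0447). By total reads the coding and non-coding changes were -0.20 and -0.38 for *ctr5* (adjusted p = 0.59 and 0.865, limma) and -0.070 and -0.17 for *ctr4* (adjusted p = 0.91 and 0.963). The coding part took 81.6% to 88.7% of the nascent reads of *ctr4* and 36.2% to 46% of those of *ctr5*.

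*ctr6* is the only gene of the 4 with introns in its coding region, and its nascent reads were uneven along the 5 coding exons. Exon 1, 45 nt long, had 1057 and 1756 normalised reads per kb in TSA against 2575 and 1726 in untreated cells on the total-read scale. Exon 3, 261 nt long, had 388 and 280 reads per kb in TSA against 216 and 277 in untreated cells. Exon 5, 93 nt long, had 604 and 645 reads per kb in TSA against 1038 and 531 in untreated cells, which overlapped. Thus exons 1 and 5 were each denser than exon 3 in every IP library. Between the groups the order depended on the scaling. On the total-read scale the groups overlapped in exon 1, and in exon 3 the TSA libraries lay above the untreated ones, 280 against 277 at the closest. On the spike-in scale exon 1 had 748 and 1419 reads per kb in TSA against 3467 and 1434 in untreated cells, without overlap, and exon 3 overlapped at 275 and 226 in TSA against 291 and 231 in untreated cells.

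The share of coding IP reads of *ctr6* in exon 1 was 21.6% (95% Wilson interval 17.2% to 26.8%) and 33.5% (27.8% to 39.7%) in TSA replicates 1 and 2. It was 41.4% (36.5% to 46.4%) and 35.5% (30.6% to 40.8%) in untreated replicates 1 and 2. Exon 1 makes up 10.1% of the coding length. Both TSA libraries lay below both untreated ones, but TSA replicate 2 and untreated replicate 2 were within each other's intervals, which cover counting error only. In the input the shares were 22.1% (13.8% to 33.3%) and 25.8% (13.7% to 43.2%) in TSA, and 20.9% (11.4% to 35.2%) and 39.0% (25.7% to 54.3%) in untreated cells, from 8 to 16 reads in exon 1. With 2 libraries a group no test of this share was made. A pile-up of reads at 1 position cannot be seen in values summed over an exon.

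**Figure D4:**
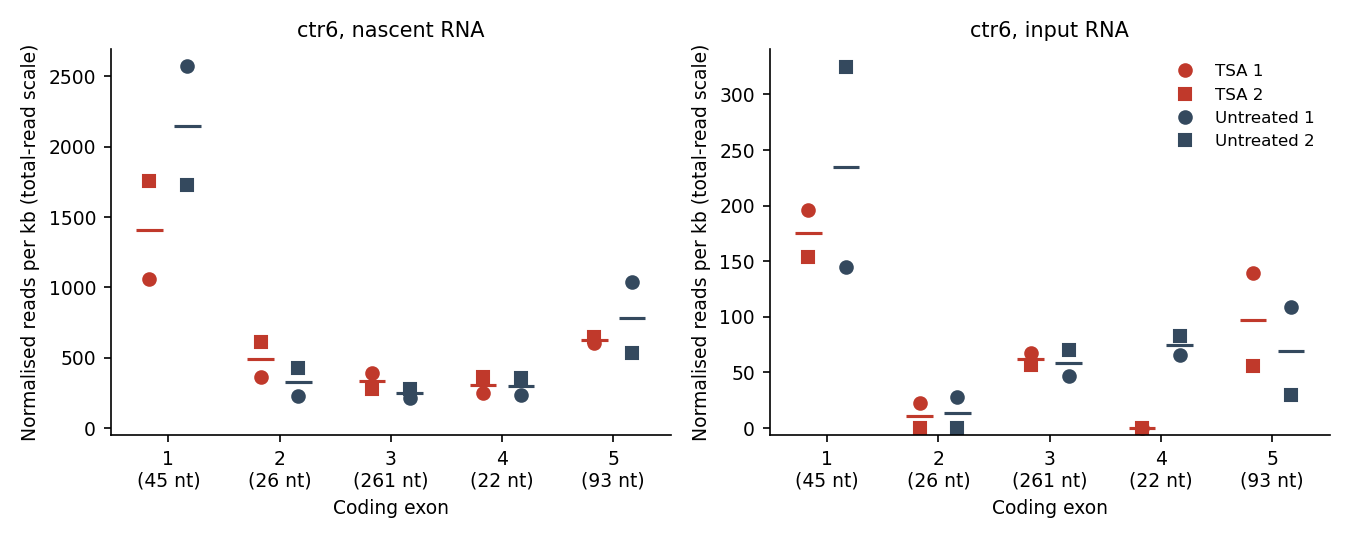
Normalised reads per kb (y axis, total-read scale) in the 5 coding exons of *ctr6* (x axis, length in nt), for nascent RNA (left) and input RNA (right), with TSA (red) left of untreated (dark) and lines at the means of 2 libraries. Exon 1 is the densest in every IP library, at 1057 to 2575 reads per kb.

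Whether nascent and input RNA changed by different amounts was asked with the ratio of IP over input of each culture, both on the total-read scale. None of 7183 features was called (0% in either direction), although 692 had an unadjusted p under 0.05 (limma). For *ctr6* the ratio was 5.66 and 5.65 in TSA against 9.53 and 8.17 in untreated cells, a log2 change of -0.63 ± 0.27 (adjusted p = 0.523, limma). The TSA ratios lay below both untreated ratios. For *cuf1* it was 9.71 and 16.3 in TSA against 7.99 and 10.9 in untreated cells, and the log2 change of 0.40 ± 0.38 (adjusted p = 0.758, limma) came with overlapping groups.

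The ratio of *ctr4* was 3.88 and 4.0 in TSA against 2.37 and 5.26 in untreated cells, and that of *ctr5* 5.37 and 4.91 in TSA against 4.16 and 7.47 in untreated cells. The TSA cultures of both genes lay between the untreated ones, with log2 changes of 0.16 ± 0.39 and -0.12 ± 0.34 (adjusted p = 0.921 and 0.932, limma). *ctr4* had the lowest ratio of the 4 genes in each culture. It reached the 5.08 percentile of protein-coding genes in untreated replicate 1 and between the 14.5 and 37.1 percentiles in the other cultures.

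The genes beside the copper genes were examined next. Of 11 features that overlap a copper gene or flank it, 10 were tested on the spike-in scale and 1 was called, in the lower direction, beside 6.31% of all features. This was SPNCRNA.923, a non-coding RNA that overlaps *ctr5* by 567 nt on the opposite strand. It had 9 and 3 nascent reads in TSA against 26 and 21 in untreated cells. The scaled values were 4.97 and 2.42 in TSA and 26 and 11.5 in untreated cells. The log2 change was -1.30 ± 0.36 by the spike-in (adjusted p = 0.0062, limma) and -1.01 ± 0.30 by total reads (adjusted p = 0.0111). The call rested on few reads and held in 1 of 4 spike-in fits with 1 library left out and in 2 of 4 by total reads. It was lost without untreated IP replicate 1 (-0.86 and -0.84) and without TSA IP replicate 2 (-1.11 and -0.76), and on the spike-in scale also without TSA IP replicate 1 (-1.49, adjusted p = 0.146). At 4 times the pseudocount the changes were -0.61 and -0.45, below 2-fold, and with median-ratio factors the change was -1.04 (adjusted p = 0.0778). On the recovered reads edgeR called it with both scalings, while DESeq2 called it by the spike-in (-2.27, adjusted p = 0.0355) and not by total reads (-1.69, adjusted p = 0.243).

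The antisense transcript novelncTU_446 overlaps *ctr4* by 771 nt and had 24 and 20 nascent reads in TSA against 18 and 36 in untreated cells, with no call (log2 change -0.27 ± 0.35 on the spike-in scale). A further antisense transcript of *ctr5*, XUT0674, overlaps it by 505 nt and had at most 9 reads in any IP library, too few to be tested. How the deposited tables assign reads to strands is not given in the sources used here beyond NET-seq being a strand-specific method, so reads of sense and antisense partners were taken as listed.

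Of 14 further genes of copper handling, 12 were found in the tables and 11 were tested, *cuf2* being too low. On the spike-in scale 2 rose, 1 fell and 8 were not called, beside 2.1% of all features called higher and 6.31% lower, and their median log2 change of -0.41 stood beside -0.42 over all features. By total reads 2 rose and 9 were not called (median 0.056), beside 4.45% of all features called higher and 0.843% lower. In the input 3 rose and 8 were not called (median 0.16), beside 4.53% called higher and 1.56% lower. The metallothionein gene *zym1* had 379 and 770 normalised nascent reads in TSA against 175 and 144 in untreated cells on the spike-in scale, a log2 change of 1.73 ± 0.30 (adjusted p = 1.3e-06, limma). In the input *zym1* had 78.9 and 84.7 normalised reads in TSA against 11.6 and 10.9 in untreated cells, a log2 change of 2.74 ± 0.22 (adjusted p = 7.9e-07). Both TSA libraries lay far above both untreated ones in the 2 kinds of RNA. Whether this rise has to do with copper was not tested. The spike-in call of *zym1* was lost without TSA IP replicate 2 (1.22, adjusted p = 0.357).

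The copper amine oxidase gene *cao2* had 133 and 216 normalised nascent reads in TSA against 54 and 47.6 in untreated cells on the spike-in scale, a log2 change of 1.63 ± 0.33 (adjusted p = 6.3e-05, limma). Its input values were 14.7 and 13.8 in TSA against 1.44 and 6.39 in untreated cells, from 2 and 7 reads in the untreated libraries (log2 change 1.79 ± 0.47, adjusted p = 0.0184). The second copper amine oxidase gene, *cao1*, went the other way. It had 209 and 293 normalised nascent reads in TSA against 725 and 450 in untreated cells on the spike-in scale, a log2 change of -1.19 ± 0.29 (adjusted p = 0.0021, limma). On the total-read scale it was not called (-0.71, adjusted p = 0.0618). The nascent call of *cao2* on the spike-in scale was lost without TSA IP replicate 1 (1.97, adjusted p = 0.0652) or 2 (1.29, adjusted p = 0.343), while its call on the total-read scale held in all 4 such fits. That of *cao1* was lost without TSA IP replicate 1 (-0.95) or 2 (-1.43) or untreated IP replicate 1 (-0.85).

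*mfc1*, a copper transporter gene of meiotic cells, was called in the input only, at 306 and 533 normalised reads in TSA against 141 and 276 in untreated cells (log2 change 1.03 ± 0.25, adjusted p = 0.0135, limma). Its nascent change was -0.011 ± 0.33 by the spike-in and 0.43 ± 0.25 by total reads, and the change of its ratio of IP over input was not called (-0.60, adjusted p = 0.689). The input calls of *mfc1* and *cao2* held in 1 of 4 fits with 1 library left out. They were lost without untreated input replicate 1 (0.55 for *mfc1* and 1.03 for *cao2*), TSA input replicate 1 (1.43 and 1.75) or TSA input replicate 2 (0.63 and 1.84). DESeq2 on the recovered reads called neither (adjusted p = 0.478 for *mfc1* and 0.224 for *cao2*), nor did limma without the variance trend (adjusted p = 0.259 and 0.158).

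Genes that Cuf1 is known to turn down were not called in any comparison. They were *frp1*, *fip1* and *fio1*, which encode a ferric reductase, an iron permease and a multicopper ferroxidase. Nascent changes on the spike-in scale were 0.15 ± 0.30, -0.044 ± 0.31 and 0.042 ± 0.30 (log2), above the median feature at -0.42. In the input they were 0.72 ± 0.20, 0.50 ± 0.20 and 0.28 ± 0.16, of which that of *frp1* had an adjusted p of 0.0273 (limma) below 2-fold.

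**Figure D5:**
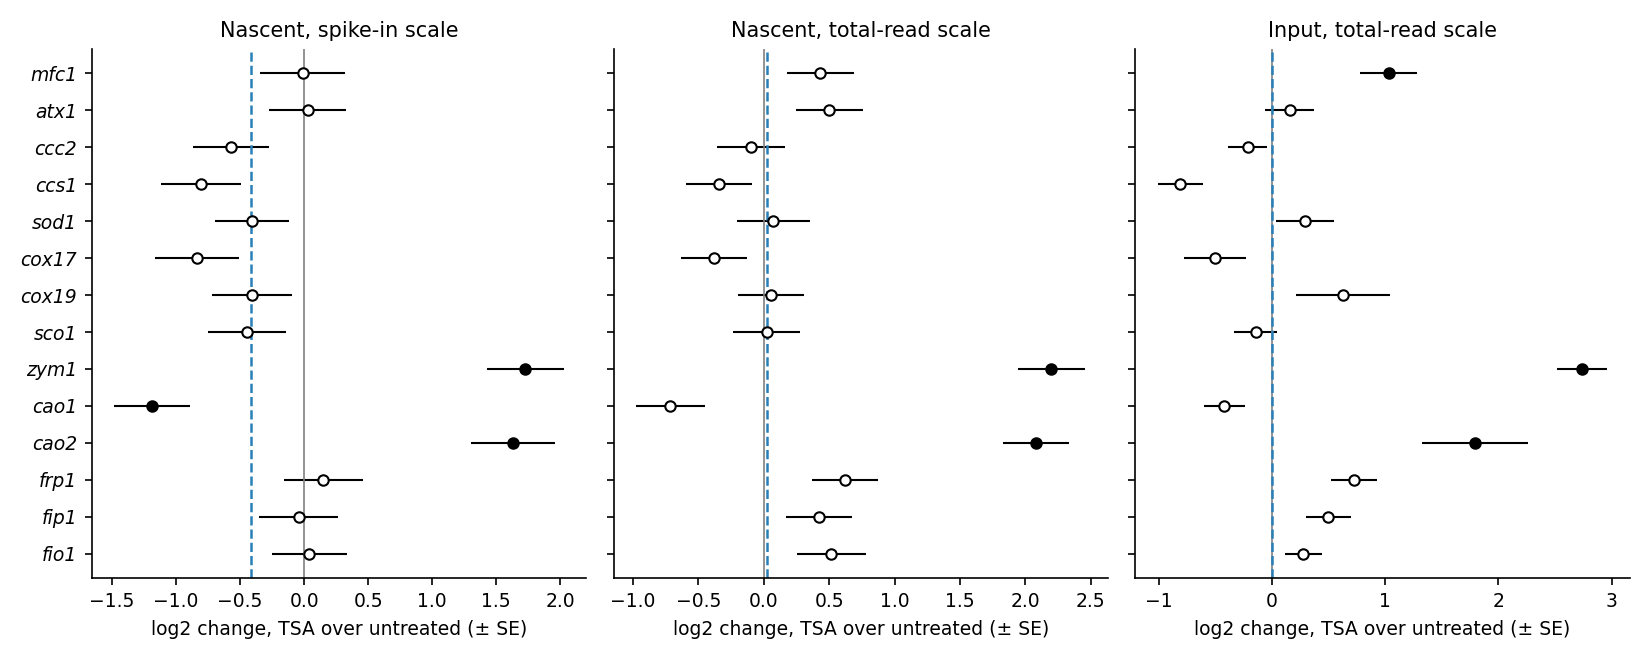
log2 change, TSA over untreated, with its SE (x axis) for 11 tested genes of copper handling and 3 of reductive iron uptake (rows), with filled points where called and a dashed line at the median of all features tested. *zym1* and *cao2* are called higher in all 3 comparisons, *cao1* is called lower on the spike-in scale and *mfc1* higher in the input.

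Finally, the genes were compared by their pattern over the 8 libraries, as the Pearson r of log2 total-read values after the means of the 4 IP and of the 4 input libraries were taken off. This describes 8 libraries of 4 cultures, of which the IP and input of a culture share a lysate. *ctr4* was most like *lys7* (r = 0.979), SPCC74.04 (0.932) and SPAC57A7.07c (0.928), among 4961 protein-coding genes. *ctr5* was most like *mug99* (0.943), the SNARE gene *sft1* (0.933) and SPAC57A7.07c (0.929). *ctr4* and *ctr5* were close to each other (r = 0.922), *ctr5* ranking 5 for *ctr4* and *ctr4* ranking 4 for *ctr5*. Both genes differed most between the untreated input libraries, at 267 and 111 for *ctr4* and 152 and 81.2 for *ctr5*. This r thus follows the spread of replicates and is no measure of a shared response to TSA.

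*ctr6* was most like SPBC28E12.02 (r = 0.964), *mob2* (0.917) and SPAC11E3.14 (0.908). It was unlike *ctr4* (-0.054) and *ctr5* (-0.041) and ran against *cuf1* (-0.74), which ranked 4259 for *ctr6* among 4961 genes, so many genes ran further against it. *cuf1* was most like *new13* (r = 0.992), the dioxygenase gene *ofd2* (0.983) and *sat1* (0.983), and its r with *ctr4* and *ctr5* was 0.33 and 0.41.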

How the data were processed

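NET-seq maps the RNA ends held by Pol II. According to the methods, adapters were removed with cutadapt and reads were mapped uniquely with Bowtie at 1 mismatch, and the methods name the ASM294v2 genome. The feature annotation is not given in the sources used here. Both deposited tables list 19343 features, of which 10204 coding entries were kept apart and 28 repeated pseudogene entries left out. The deposited signal columns hold reads per feature times 1 factor per library, set by the authors from budding yeast ribosomal protein genes (4 IP libraries) or total mapped reads (8 libraries). In each table the library with factor 1 is deposited as raw counts. Whole reads were recovered for 100% of values at a tolerance of 0.001 read. 12 deposited columns of summed values and densities were not used.

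limma 3.58.1 (R 4.3.3; lmFit, eBayes with trend) was run on log2 values after adding a pseudocount, taken as the 10 percent quantile of values above 0 (6.00 and 6.58 for IP on the spike-in and total-read scales, 1.18 for input), over features whose mean exceeded it. A fold change is therefore on that scale and understates changes of low genes. For coding and non-coding parts the quantile was taken anew from their own values, so the pseudocounts given here do not apply to them. In both IP fits the prior degrees of freedom were infinite, so SE and p of a feature followed the trend of variance with level. P values are two-sided, adjusted by Benjamini-Hochberg over all tested features, with calls at 0.05 and 2-fold. Of 200 genes simulated with 4-fold changes on the total-read scale, 99.5% were recovered and 0 others called. Smaller changes, the spike-in scale and the input were not simulated. The recovery therefore does not show how often changes as small as those of the 4 genes would be called. With 2 libraries a group, an exact permutation test could not reach 0.05. Alternatives were other pseudocounts, no filter, 1 library left out, a replicate block, no trend, coding entries, median-ratio factors, and edgeR 4.0.16 and DESeq2 1.42.0 on recovered reads. The non-coding part and a crossed block were added after seeing the data.

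The 4 genes, gene lists and naming rules (the members, features beside them, called genes of the copper list of 14 and the iron list of 3, and the 3 most similar genes of each member) were chosen with earlier results of these data known. Protein sequences were not analysed here. *cox11* and *cox23* were not matched. ASM294v3 sequences were read from RefSeq with its coding positions. A further sequence is not reported here.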

Additional observations from a re-analysis of the deposited data

How the results depend on the processing

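Of 220 changes of the 4 genes recomputed under the alternatives, 212 kept their direction and their side of the call, 6 reversed and 2 came to be called. With 1 library left out, the spike-in changes of *ctr5* and *ctr6* ranged between -1.17 and -0.43 and between -1.09 and -0.059, and 0 to 2 of the 4 genes were called. The input changes of *ctr4* (-0.87 to 0.38) and *ctr5* (-0.65 to 0.24), the total-read nascent change of *ctr6* (-0.26 to 0.076) and the ratio changes of *ctr4* (-0.41 to 0.73) and *ctr5* (-0.53 to 0.30) crossed 0. In coding entries the input change of *ctr6* was -0.047. Over all features, calls on the spike-in scale numbered 677, against 816 with edgeR, 654 with DESeq2, 318 at 4 times the pseudocount, 374 (316 higher, 58 lower) with median-ratio factors and 54 to 1501 with 1 library left out. On the total-read scale they numbered 427, against 580 with edgeR, 339 with DESeq2 and 165 at 4 times the pseudocount. In the input they numbered 441, against 459 with edgeR, 156 with DESeq2, 127 without the trend and 50 to 422 with 1 library left out. For the ratio they numbered 0, against 5 at 4 times the pseudocount and 40 in coding entries. The cause of these shifts was not tested.

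TSA and untreated cultures share only a replicate number, and libraries of the same number did not deviate together (r = -0.205 and -0.242 in the IP, 0.0181 in the input). With the replicate block, calls numbered 241 by the spike-in, 418 by total reads and 509 in the input, with 0 of the 4 genes among them. On the spike-in scale the block gave *ctr5* a log2 change of -0.80 with an adjusted p of 0.162, and SPNCRNA.923 lost its call (adjusted p = 0.0669, limma). A crossed pairing, chosen after seeing the data, gave 677 and 429 calls in the IP and again 0 of the 4 genes. Of the 4 genes *cuf1* had the fewest reads in the input, 16 to 39 a library.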
